A study of Rattus norvegicus with 8 samples.

Results

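The metabotropic glutamate receptors Grm2, Grm3, Grm4, Grm5, Grm7 and Grm8 and the glutamate transporters Slc1a1, Slc1a2 and Slc1a3 were examined in rat dorsal spinal cord after nerve injury, with and without an inhibitor of histone deacetylases (HDACi). A gene was taken where a probe set had its symbol, current or older, as the only symbol in the platform annotation. All 9 genes were found among 14506 measured genes, and each had 1 probe set. The tissue was the dorsal ipsilateral lumbar cord of adult male Wistar rats, taken on day 14 after transection of the L5 spinal nerve. Both groups were injured: 4 arrays came from rats given the class I inhibitor MS-275 by intrathecal pump at 30 nmol/d, started before the injury, and 4 from rats given the vehicle, DMSO in saline solution. No uninjured cord was among the samples, so a difference between injured and intact cord was not measured. RNA was hybridized to Affymetrix Rat Gene 1.0 ST arrays, which carry probes along whole transcripts, and the values are log2 RMA signals. RMA corrects probe intensities for background, gives them the same distribution on every array and then summarizes them per probe set. The summarized values can still differ in distribution between arrays, with array medians here of 7.95 to 7.98.

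Metabotropic glutamate receptors are G protein-coupled receptors that tune transmission rather than carry current. Group I (here Grm5) couples to phospholipase C and calcium release, mostly on the postsynaptic side. Group II (Grm2 and Grm3) and group III (Grm4, Grm7 and Grm8) inhibit adenylyl cyclase and mostly restrain transmitter release, and Grm3 is also made by astrocytes. Transporters end the signal by taking glutamate up with sodium: Slc1a2 (GLT-1) and Slc1a3 (GLAST) sit mainly on astrocytes and Slc1a1 (EAAC1) on neurons. In the dorsal horn, group II and III receptors and astrocytic uptake are known to dampen nociceptive input. Grm2 has been reported to rise with HDAC inhibitors in pain models, and this is the question the comparison addressed for that gene.

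RefSeq entries of the rat build GRCr8 were found for the promoters of 5 of the 9 genes, namely Grm5, Grm7, Grm8, Slc1a2 and Slc1a3. In the 250 bases before the start, CpG dinucleotides numbered 1 for Grm5, 9 for Grm7 and 5 for Grm8, against a median of 5 over 33469 rat promoters. The sequences of the astrocytic transporters are shown because their measured differences had opposite signs. Capitals mark CpG dinucleotides, and both are written 5′ to 3′ on the strand of the gene.
Slc1a2, chr3:109459859-109460108, plus strand: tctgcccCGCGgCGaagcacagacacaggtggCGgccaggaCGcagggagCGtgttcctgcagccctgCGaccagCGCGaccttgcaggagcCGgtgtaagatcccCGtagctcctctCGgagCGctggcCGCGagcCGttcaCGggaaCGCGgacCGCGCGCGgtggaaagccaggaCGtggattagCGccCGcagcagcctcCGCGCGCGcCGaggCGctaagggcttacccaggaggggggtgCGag
Slc1a3, chr2:59557809-59558058, minus strand: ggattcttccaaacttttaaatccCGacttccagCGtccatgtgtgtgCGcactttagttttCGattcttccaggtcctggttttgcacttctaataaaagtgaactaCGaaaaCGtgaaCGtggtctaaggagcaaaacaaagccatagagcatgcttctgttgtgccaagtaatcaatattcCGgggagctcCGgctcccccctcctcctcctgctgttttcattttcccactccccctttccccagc
The Slc1a2 stretch held 33 CpG dinucleotides and 71.2% G and C, and 96.4% of promoters held fewer CpG. A further listed start of Slc1a2 held 2. The Slc1a3 stretch held 9 and 48.0% G and C, and 61.5% of promoters held fewer CpG. The other listed starts of Slc1a3, which overlap this stretch, held 10 each. The GC box GGGCGG, searched on both strands, was found in Grm7 (2 matches) and in none of the other 4, where 30.47% of all promoters held it. Histone acetylation was not measured at these sequences here.

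None of the 9 genes passed adjustment for all genes, and all measured differences were small. In limma, 0 of the 14506 genes had an adjusted p under 0.05 (0%), and the smallest adjusted p among the 9 was 0.629. The study, which fitted probe sets, reported 1 gene past its correction in the cord, a mitochondrial transfer RNA for cysteine. At an unadjusted p under 0.05, 1 of the 9 was called, Grm3, where 7.75% of all genes were called. At the threshold of 0.01 that the study used, 0 of the 9 were called in limma, where 1.46% of all genes were. In 0 of the 9 did the groups fail to overlap, against 5.02% of all genes. The median log2 difference, HDACi minus vehicle, was -0.012 over the 9 genes and -0.014 over all genes, with 3 of the 9 above 0 and 6 below.

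Grm3, the group II receptor that astrocytes also make, had the smallest p of the 9. Its log2 signal was 10.90, 11.00, 10.90 and 10.97 in HDACi replicates 1 to 4 and 11.12, 10.99, 11.05 and 11.05 in vehicle replicates 1 to 4. Vehicle replicate 2 lay below HDACi replicate 2, and all other vehicle arrays lay above all HDACi arrays. The means were 10.94 ± 0.05 (SD, n = 4) with HDACi and 11.05 ± 0.05 (SD, n = 4) with vehicle, a log2 difference of -0.11 (standard error 0.04, 95% confidence interval -0.21 to -0.01) and a ratio of 0.927. The unadjusted p was 0.0377 and the adjusted p 0.629 in limma, and the exact two-sided permutation p was 0.0571, where 4 against 4 arrays can reach 0.0286. The difference stayed below 0 in all 19 alternative settings, from -0.13 to -0.09. Variance models, filters on dim genes, gene summaries and the replicate block cannot move it, as Grm3 has 1 probe set and the groups are equal. Only normalizations, array weights and arrays left out bear on its sign. The unadjusted p was under 0.05 in only 11 of the 19 settings. With the replicate number as a block, the unadjusted p in limma was 0.0932.

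Grm2, the other group II receptor, showed no detectable difference. HDACi replicates 1 to 4 read 7.13, 7.22, 7.34 and 7.30, and vehicle replicates 1 to 4 read 7.17, 7.08, 7.37 and 7.33. Both the highest and the lowest of these were vehicle arrays, so the HDACi arrays lay inside the vehicle range. The means were 7.25 ± 0.09 (SD, n = 4) and 7.24 ± 0.14 (SD, n = 4), with a log2 difference of 0.011 (standard error 0.074; limma unadjusted p = 0.883, adjusted p = 0.983). The 95% interval ran from -0.16 to 0.18, a ratio between 0.898 and 1.13 on the scale of the array. Some of the 18 settings that kept Grm2 cannot move its difference, as stated for Grm3. The sign of the Grm2 difference turned in 4 of the 18, and its values ran from -0.04 to 0.06. Its signal was dim: it stood at the 28.2th percentile of genes, and 25 of 1128 olfactory receptor probe sets, a family with no known role in the cord, had a higher mean. The median of those receptors was 5.22 and their 95th percentile 6.93. RMA compresses differences between dim probe sets, so the interval bounds the array signal and not the RNA.

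**Figure D1:**
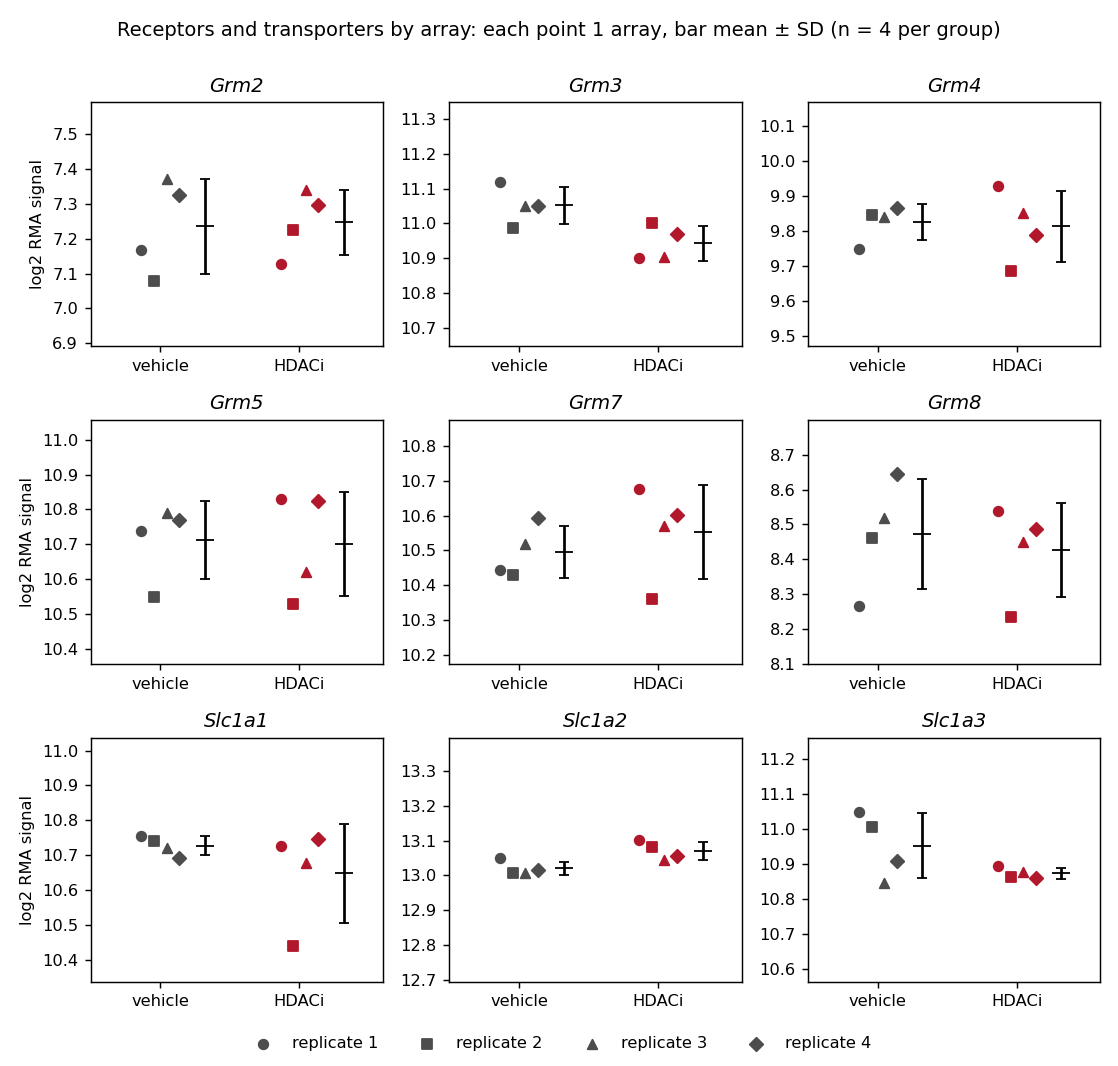
Log2 RMA signal of each of the 9 genes on the 4 vehicle arrays (grey) and 4 HDACi arrays (red), with the marker shape giving the replicate number and the bar the mean ± SD. Every panel spans the same log2 range. The groups overlap in all 9 panels, most narrowly for Grm3 and Slc1a2, and HDACi replicate 2 (square) is the lowest array in Grm4, Grm5, Grm7, Grm8 and Slc1a1.

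Grm5, the group I receptor that drives calcium release, read 10.83, 10.53, 10.62 and 10.82 in HDACi replicates 1 to 4. It read 10.74, 10.55, 10.79 and 10.77 in vehicle replicates 1 to 4. HDACi arrays held both the highest and the lowest value, with replicate 2 lowest in either group. The log2 difference was -0.011 (standard error 0.082, 95% confidence interval -0.20 to 0.17; limma unadjusted p = 0.894), a ratio of 0.992.

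Of the group III receptors, which restrain release from presynaptic terminals, Grm7 had the highest difference. It read 10.68, 10.36, 10.57 and 10.60 with HDACi and 10.44, 10.43, 10.52 and 10.59 with vehicle, in replicates 1 to 4. HDACi replicate 2 lay below every vehicle array, while replicates 1 and 4 lay above every one. The log2 difference was 0.056 (standard error 0.071, 95% confidence interval -0.10 to 0.21; limma unadjusted p = 0.445), and with each array left out in turn it ran from 0.015 (without HDACi replicate 1; limma unadjusted p = 0.835) to 0.12 (without HDACi replicate 2; limma unadjusted p = 0.0580). It was 0.034 without vehicle replicate 2, 0.088 without vehicle replicate 4 and 0.088 with array quality weights. Grm4 read 9.93, 9.69, 9.85 and 9.79 with HDACi and 9.75, 9.85, 9.84 and 9.87 with vehicle, and the vehicle values lay within the HDACi range. Its log2 difference was -0.012 (standard error 0.057, 95% confidence interval -0.14 to 0.12; limma unadjusted p = 0.840). Grm8 read 8.54, 8.23, 8.45 and 8.49 with HDACi and 8.26, 8.46, 8.52 and 8.64 with vehicle. Its lowest array was HDACi replicate 2 and its highest vehicle replicate 4, with a log2 difference of -0.045 (standard error 0.090, 95% confidence interval -0.25 to 0.16; limma unadjusted p = 0.628). Without HDACi replicate 2, the differences of Grm4, Grm5 and Grm8 were 0.031, 0.046 and 0.019, above 0 instead of below. The direction of these 3 genes is therefore not settled by these arrays.

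Slc1a2, the main astrocytic glutamate transporter, was slightly higher with HDACi in nearly every array, by less than the test could call. HDACi replicates 1 to 4 read 13.10, 13.08, 13.04 and 13.06, and vehicle replicates 1 to 4 read 13.05, 13.01, 13.01 and 13.02. All HDACi arrays but replicate 3 lay above all vehicle arrays, and replicate 3 lay just under vehicle replicate 1. The means were 13.07 ± 0.03 (SD, n = 4) and 13.02 ± 0.02 (SD, n = 4), a log2 difference of 0.051 (standard error 0.037, 95% confidence interval -0.03 to 0.13; limma unadjusted p = 0.195, exact permutation p = 0.0571). The ratio was 1.04, with an interval from 0.979 to 1.10. limma's moderation widened the error of this low-variance gene, and without it the unadjusted p was 0.0212 (adjusted p = 0.571 in limma, which ranged from 0.563 up over the settings). After a further quantile normalization the log2 difference was 0.020 (limma unadjusted p = 0.615). The Slc1a2 signal stood at the 99.7th percentile of genes, near the top of the scale, where arrays are known to saturate and to compress differences.

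Slc1a3, the other astrocytic transporter, lay on the other side of 0. It read 10.89, 10.86, 10.88 and 10.86 with HDACi, the tightest group of any of the 9 genes (SD 0.02, n = 4). It read 11.05, 11.01, 10.84 and 10.91 with vehicle (SD 0.09, n = 4), where replicate 3 lay below every HDACi array and the rest above every one. The log2 difference was -0.079 (standard error 0.051, 95% confidence interval -0.19 to 0.04; limma unadjusted p = 0.154), and with each array left out in turn it ran from -0.046 (without vehicle replicate 1; limma unadjusted p = 0.384) to -0.11 (without vehicle replicate 3; limma unadjusted p = 0.0451, adjusted p = 0.793). Slc1a1, the neuronal transporter, read 10.73, 10.44, 10.68 and 10.75 with HDACi and 10.75, 10.74, 10.72 and 10.69 with vehicle. HDACi replicate 2 stood apart, and without it the log2 difference went from -0.080 (standard error 0.067; limma unadjusted p = 0.263) to -0.010, and it was -0.050 with array quality weights.

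**Figure D2:**
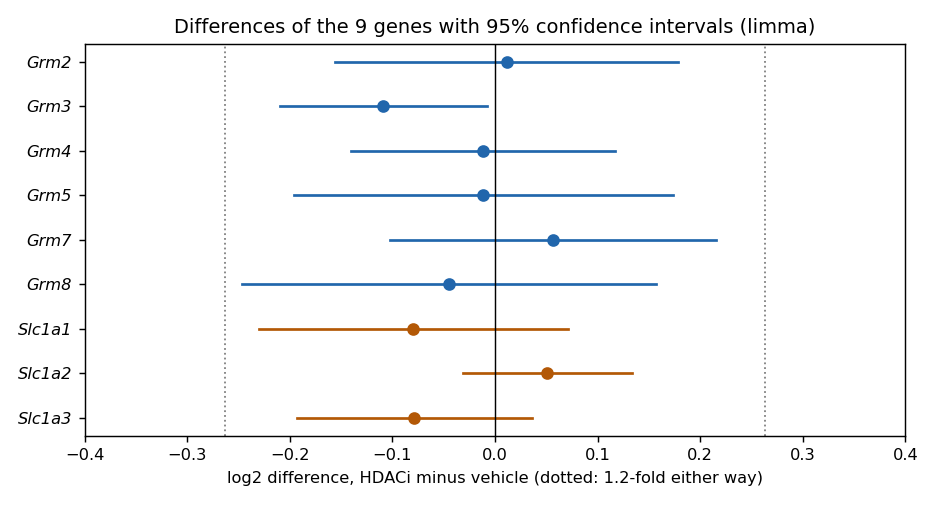
Log2 difference (HDACi minus vehicle) of each gene from limma as a point with its 95% confidence interval, receptors in blue and transporters in orange, with dotted lines at 1.2-fold either way. All 9 intervals lie inside the dotted lines and 8 of 9 hold 0; that of Grm3 ends at -0.01.

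The intervals set limits on the sizes that these arrays allow. All 9 lay within 1.2-fold either way, the highest upper bound being 1.16-fold for Grm7 and the lowest lower bound 0.843 for Grm8. Such bounds concern the array signal of a bulk tissue, where fewer cells of a type and less RNA per cell cannot be told apart. The number of arrays limits the precision, with a median standard error of 0.06 on the log2 scale over all genes.

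Whether relatives differed from each other was tested on the log2 ratio of a pair within each array, for the 7 pairs within group II, group III and the transporters, chosen after the values were seen. The ratio of Slc1a2 to Slc1a3 was higher with HDACi by 0.13 on the log2 scale, and its HDACi values did not overlap the vehicle values. Its exact two-sided permutation p was 0.0286, the smallest that 4 against 4 arrays can give, and 0.200 after adjustment over the 7 pairs. The ratio of Slc1a1 to Slc1a2 was lower by 0.13 (a log2 difference of -0.13, exact permutation p = 0.0571, adjusted 0.200). It rests largely on HDACi replicate 2, which had the lowest ratio, -2.64, where the highest HDACi ratio was -2.31. Without that array, the log2 differences of Slc1a1 and Slc1a2 were -0.010 and 0.048. Both pairs also hold Slc1a2, whose signal lay near the top of the scale. Grm2 over Grm3 had a log2 ratio higher by 0.12 with HDACi (exact permutation p = 0.229, adjusted 0.320), a pair of little use because Grm2 was dim. The other 4 pairs had an exact permutation p of 0.143 or more. Unequal change within an array does not say which of a pair changed.

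Pairs of the 9 genes gave correlations of either sign over the arrays, and none passed adjustment. HDACi replicate 2 was the lowest of the 8 arrays for 5 of the 9 genes, Grm4, Grm5, Grm7, Grm8 and Slc1a1. HDACi replicate 1 was the highest for 4, Grm4, Grm5, Grm7 and Slc1a2. Over the 8 arrays, with group means removed, Grm7 and Grm8 had a Pearson r of 0.868 and a Spearman rho of 0.905. Permuting arrays within groups gave exact p values of 0.00521 and 0.00694, which were 0.104 and 0.219 after adjustment over 36 pairs of genes, and r was 0.822 without the 2 arrays farthest from the median of Grm7. Grm4 and Grm8 gave an r of 0.840 and a rho of 0.738 (exact permutation p = 0.00868 and 0.0556, adjusted 0.104 and 0.425; r = 0.795 without the 2 farthest arrays). Grm4 and Grm7 gave an r of 0.840 and a rho of 0.714 (exact permutation p = 0.0434 and 0.0972, adjusted 0.3125 and 0.583). The r of Grm4 and Grm7 was only 0.438 without the 2 farthest arrays, HDACi replicates 1 and 2. Grm5 and Grm7 gave an r of 0.815 and a rho of 0.905 (exact permutation p = 0.00868 and 0.0122, adjusted 0.104 and 0.219), with r at 0.507 without the 2 farthest arrays, so that relation rests in part on them. Grm3 and Grm4 gave an r of -0.832 and a rho of -0.738 (exact permutation p = 0.0174 and 0.0590, adjusted 0.156 and 0.425). Without the 2 arrays farthest from the median of Grm3, their r was -0.929. Grm2 and Slc1a3 gave an r of -0.774 and a rho of -0.786 (exact permutation p = 0.108 and 0.118, adjusted 0.554 and 0.607; r = -0.845 without the 2 farthest arrays). Of the 36 pairs, 20 had an r above 0 and 16 below, with a median of 0.126, and no pair passed adjustment. How often arbitrary pairs of genes reach such an r on these arrays was not tested.

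HDACi replicate 2 had an array quality weight of 0.760, above those of vehicle replicates 2 (0.644) and 4 (0.569). HDACi replicate 2 also lay at the end of the range for several marker lists. The mean log2 signal of 7 leptomeningeal fibroblast markers was 9.92 on that array, while the remaining HDACi arrays read 8.54 to 8.94 and the vehicle arrays 8.51 to 9.36. The 7 vascular markers read 10.16 there, while the remaining HDACi arrays read 9.87 to 10.02 and the vehicle arrays 9.89 to 9.95. The same array was the lowest of the 8 for the mean of 10 neuron markers (11.82; the rest 11.86 to 12.08) and the highest for 8 microglia and macrophage markers (10.34; the rest 9.93 to 10.29). The part of these cells in the receptor and transporter values was not tested. Of 10 neuron markers, 9 had a difference below 0 (median -0.09), where 57.9% of all genes did. limma called 2 of the 10 at an unadjusted p under 0.05, Nefl (-0.12) and Elavl4 (-0.17), where it called 7.75% of all genes. Their mean was 11.82 to 11.94 with HDACi and 11.94 to 12.08 with vehicle. Of 9 astrocyte markers, 8 lay above 0 (median 0.05) and none was called by limma at an unadjusted p under 0.05, with means of 11.76 to 11.85 with HDACi and 11.69 to 11.81 with vehicle. By sign alone, Slc1a2 lay above 0 like these 8 markers, and Slc1a3 and Grm3 lay below 0 like the remaining astrocyte marker, Aldoc (-0.03). The intervals of Slc1a2 and Slc1a3 held 0, and a link of these differences to astrocyte content was not tested. The list of dorsal root ganglion markers had means of 6.84 to 7.51 with HDACi and 7.002 to 7.88 with vehicle over 7 genes. Scn10a, a defining marker of the list, read 6.23 in HDACi and 6.24 in vehicle cord, above 83.8% of the olfactory receptors. Of that list, 5 of 7 lay below 0 (median -0.03), with Calca at -1.65 (standard error 0.98) and Prph at -0.93 (standard error 0.48), neither called. Calca ranged from 6.25 to 10.86 over single arrays. Scn10a, Scn11a, Mrgprd, P2rx3 and Avil had log2 differences from -0.10 to 0.02. The means of this list therefore differed mainly through Calca and Prph. Whether the list reflects ganglion tissue in the samples was not tested. Of 8 microglia and macrophage markers, 7 lay above 0 (median 0.10), and limma called Cd68 (0.30, unadjusted p = 0.0190). The 7 measured oligodendrocyte markers had 4 above 0 and a median of 0.03, with no call. Vascular markers had 6 of 7 above 0 (median 0.08) and leptomeningeal markers 4 of 7 (median 0.21), also with no call. None of these lists had an adjusted p under 0.05 in limma for any gene.

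**Figure D3:**
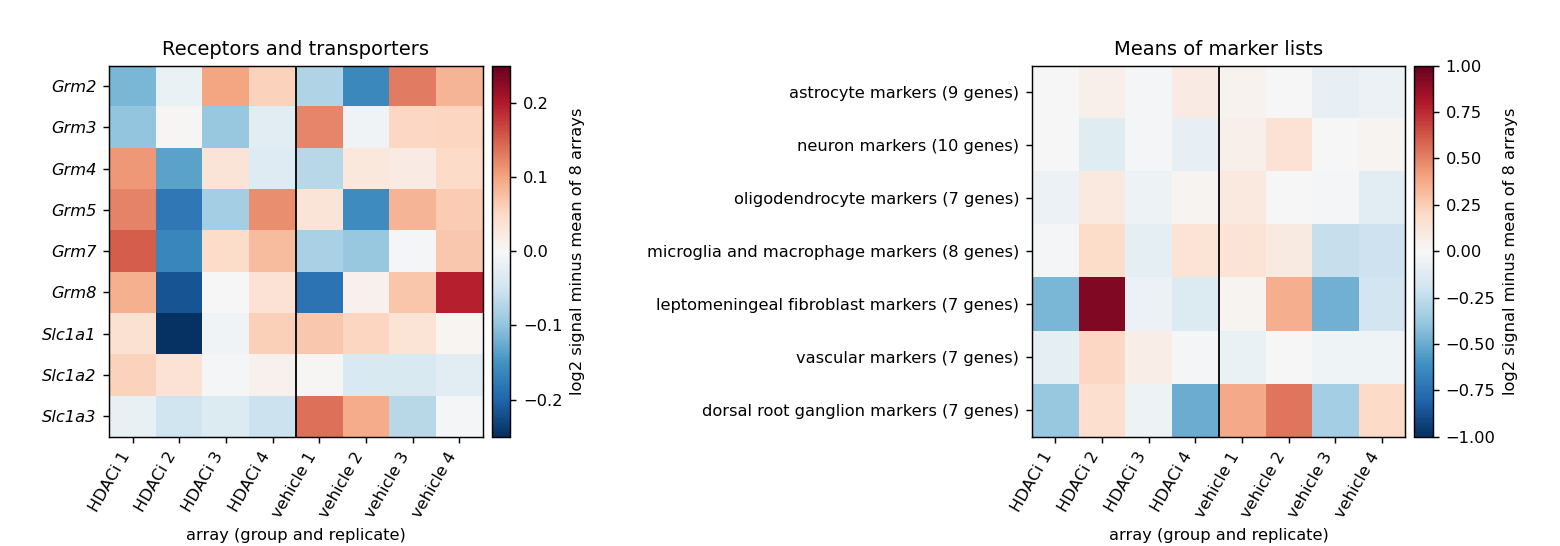
Log2 signal of each of the 9 genes (left) and mean of each marker list (right) on the 8 arrays, as the difference from the mean of all 8, with red above and blue below and a separate colour scale for each panel. HDACi replicate 2 is the lowest array for 5 genes, with the deepest blue in Slc1a1 and Grm8, and is the reddest array for leptomeningeal fibroblast markers.

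Other genes of glutamate signalling were listed by role. Of 58 such genes, 49 were measured, and limma called 4 at an unadjusted p under 0.05 (8.16%, against 7.75% of all genes), 2 higher and 2 lower. None passed adjustment, and the median log2 difference of the 49 was 0.007. Among 22 partners and effectors of the receptors, only Itpr1 passed the unadjusted threshold. Itpr1 encodes the inositol trisphosphate receptor through which group I receptors release calcium. It read 9.29, 9.32, 9.27 and 9.44 with HDACi and 9.16, 9.13, 9.23 and 9.15 with vehicle, with no overlap. Its log2 difference was 0.16 (standard error 0.05; limma unadjusted p = 0.00838, adjusted p = 0.610). The scaffold Homer1 had the lowest value of this list, -0.08, and Homer2 and Homer3 had 0.05 each.

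Of 16 genes of glutamate synthesis, vesicles and recycling, 3 were called at an unadjusted p under 0.05, where 7.75% of all genes were, and none after adjustment. Folh1, the carboxypeptidase that cleaves the Grm3 agonist N-acetylaspartylglutamate, read 10.06, 9.87, 9.99 and 10.04 with HDACi and 10.18, 10.19, 10.09 and 10.06 with vehicle. Only HDACi replicate 1 lay above the lowest vehicle array, and the log2 difference was -0.14 (standard error 0.06; limma unadjusted p = 0.0322, adjusted p = 0.628). Got1, the cytosolic aspartate aminotransferase, read 12.33, 12.14, 12.27 and 12.24 with HDACi and 12.36 to 12.39 with vehicle, a log2 difference of -0.14 with no overlap (standard error 0.05; limma unadjusted p = 0.0174). Slc7a11, the exchanger that releases glutamate for cystine and supplies extrasynaptic glutamate to group II receptors, had the largest difference of the list. It read 10.90, 10.94, 11.11 and 11.59 with HDACi and 10.19, 10.80, 10.49 and 10.50 with vehicle, a log2 difference of 0.64 (standard error 0.17; limma unadjusted p = 0.00367, adjusted p = 0.610). Its partner chain Slc3a2 had 0.09 and the vesicular transporter Slc17a6 -0.07. Slc1a4 and Slc1a5, neutral amino acid transporters of the same family as Slc1a1, Slc1a2 and Slc1a3, had -0.08 and 0.15. Neither these nor Slc3a2 and Slc17a6 passed the unadjusted threshold in limma.

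Of 6 measured partners and ion pumps of the transporters, limma called none at an unadjusted p under 0.05. Values ran from -0.03 for the sodium pump subunit Atp1b1 to 0.20 for Fxyd1, a regulator of that pump. All 5 kainate receptor subunits lay above 0, from 0.007 for Grik2 to 0.08 for Grik5, and limma called none at an unadjusted p under 0.05. The smallest adjusted p of these lists was 0.645 for the pump list and 0.727 for the kainate list.

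**Figure D4:**
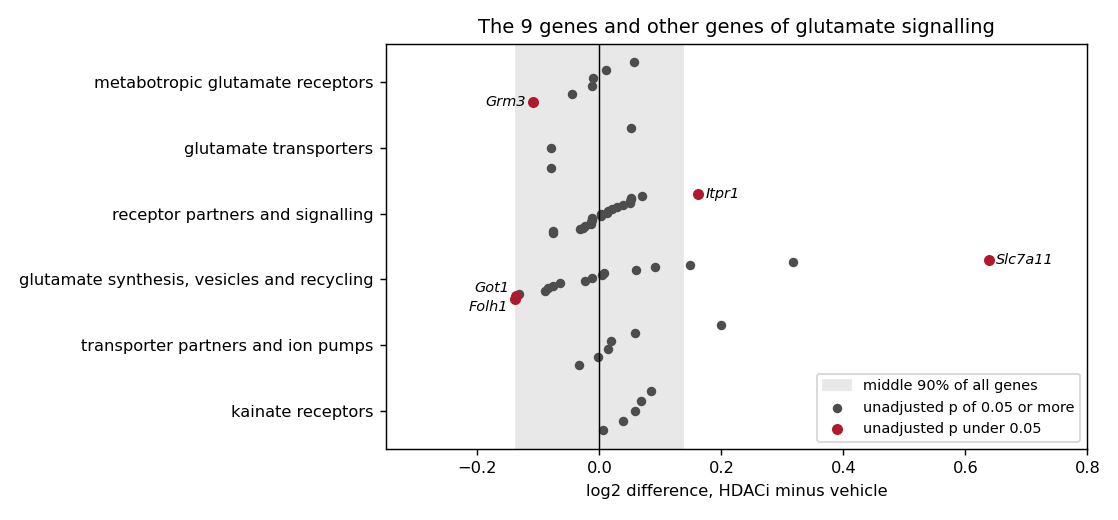
Log2 difference (HDACi minus vehicle) of each measured gene of 6 lists, 1 point per gene, red where the unadjusted p from limma was under 0.05, over a grey band that holds the middle 90% of all genes. All 9 receptor and transporter genes lie inside the band, and Slc7a11 (0.64) lies farthest outside it.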

How the data were processed

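RNA of the dorsal ipsilateral cord was hybridized with 4 HDACi and 4 vehicle arrays, grouped by sample title. The deposited log2 values were made by the authors with oligo, an R package, and its RMA normalization, and no source used here gives the versions. The deposited table held 29214 probe sets, with array medians of 7.95 to 7.98. Symbols came from the platform annotation, updated by Entrez number through RefSeq (GRCr8): 15310 probe sets had 1 symbol, 323 several and 13581 were not listed. Probe sets with 1 symbol were averaged per gene. HDACi and vehicle were compared over all 14506 genes by lmFit and eBayes (limma 3.58.1, R 4.3.3), giving two-sided p values and Benjamini-Hochberg adjustment (6 residual degrees of freedom, prior 3.36). The study fitted probe sets, which was an alternative here. Exact permutation tests used scipy 1.17.1 or full enumeration.

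The 9 genes and all lists were chosen with earlier results of these data known. The genes named are all 9, and of each list those with an unadjusted p under 0.05 or the highest and lowest differences; further genes were chosen after their values were seen. For each of the 9, the 3 genes with the highest Pearson correlation were taken, group means removed. Olfactory receptors served as a reference for dim signal, first the 59 probe sets with Olr symbols (highest mean 7.22, below Grm2) and then, widened after their values were seen, the 1128 with Olr or Or symbols. Alternatives were other variance models, filters on dim genes, normalizations, gene summaries, array weights, a replicate block and leaving out each array. The script was tested on simulated data. The labels name samples and not litters, and the study describes the replicates as biological. The scans and the dorsal root ganglion arrays were not analysed here.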

Additional observations from a re-analysis of the deposited data

How the results depend on the processing

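Over 19 alternative settings, 159 of 169 values of the 9 genes kept their side of an unadjusted p of 0.05, 8 lost it, all for Grm3, 2 passed it and none was called in opposite directions. No adjusted p of the 9 was under 0.390 in any setting. The number of the 9 with an unadjusted p under 0.05 was 2 instead of 1 without moderation of the variances, where Slc1a2 joined Grm3. It was 0 after a further quantile normalization and 0 with a replicate block, and it ran from 0 to 1 when each array was left out in turn. It was 0 without HDACi replicate 1, 3 or 4 and without vehicle replicate 1 or 4. Without vehicle replicate 3 it was 1, with Slc1a3 in place of Grm3. The causes were not tested. Grm2 and Grm8 dropped out of the filter at the median signal. The count of other glutamate genes ran from 3 to 6, and the median of the 9 from -0.05 to 0.02. Same-numbered arrays of the groups did not deviate together throughout (correlations of deviations over genes of -0.270, 0.360, 0.036 and 0.056), so the replicate numbers were not taken as pairs. Signal limits Grm2 most, since 25 of 1128 olfactory receptor probe sets were brighter.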

Other observations

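The genes whose signal followed each of the 9 most closely over the 8 arrays, group means removed, were picked as the highest of all measured genes, so their correlations are a description without a p. Grm4 was followed most closely by the netrin receptor gene Dcc (Pearson r = 0.994, Spearman rho = 0.976). Grm7 was followed by Cnih2, which encodes an auxiliary protein of AMPA receptors (r = 0.992, rho = 0.976), and Grm5 by Hpca, the calcium sensor hippocalcin (r = 0.982, rho = 0.976). Grm8 was followed by Mmp24 (r = 0.988, rho = 0.952). Slc1a1 was followed by Rab3c, a GTPase of synaptic vesicles (r = 0.988, rho = 0.929), Grm2 by Gpr151 (r = 0.990, rho = 0.976) and Grm3 by Cnpy2 (r = 0.985, rho = 0.929). For the astrocytic transporters the closest genes were Nf1 for Slc1a2 (r = 0.946, rho = 0.762) and an olfactory receptor gene, Or4c103, for Slc1a3 (r = 0.982, rho = 0.976). Second in order came Exosc9 for Grm3, Ube2v1 for Grm4, Tsg101 for Grm5, Slc25a46 for Grm7 and the potassium channel gene Kcnj6 for Grm8. For Slc1a1, Slc1a2 and Slc1a3 the second genes were Gabrg3, Pfdn2 and Psmg4. That of the dim Grm2 was another olfactory receptor gene, Or2h15 (r = 0.980). All genes share the same 8 arrays, and each of these was picked out of 14506 genes.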
